A study of Caenorhabditis elegans with 2 samples.

Results

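Cytosolic ribosomal protein genes are the protein-coding genes that carry an rpl-, rps- or rla- name followed by a number in the WBcel235 annotation of Caenorhabditis elegans. The rule finds 81 of the 19973 protein-coding genes on the nuclear chromosomes, 50 for the large subunit (the rpl and rla genes) and 31 for the small subunit (the rps genes). Their promoters were scored in a chromatin immunoprecipitation sequencing (ChIP-seq) study of UNC-130, a forkhead transcription factor. The study has 1 group of 2 biological replicates, and both replicates were called against 1 shared control file. All animals were hermaphrodites of strain AGK541 at the fourth larval stage, L4, taken 48 h after release from starvation at the first larval stage, and whole larvae were used. They carried armSi1, a single insertion on chromosome II in which the mex-5 promoter drives UNC-130::GFP with the tbb-2 3' UTR beside the marker cb-unc-119(+), together with unc-119(ed3) on chromosome III and niDf199 on chromosome IV. The tagged protein came from this transgene, whose promoter is active in the germline, and not from unc-130 at its own locus. The tag is called GFP, eGFP and GFP-FLAG in different labels, and the antibody was raised to GFP. No strain without the tag or with another tagged factor was analysed here, so the values below describe 1 factor in 1 strain.

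Ribosomes are built from ribosomal RNA and a large set of small, mostly basic proteins, which cells need in equal amounts. Growing germ cells make many ribosomes, and their ribosomal protein genes are among the most highly transcribed. Many worm messenger RNAs are trans-spliced, which removes the start of the transcript, so an annotated 5' end can lie downstream of the point where transcription begins.

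Each promoter window reached 1000 bp upstream and 200 bp downstream of the annotated 5' end, and the gene took the highest signal of any peak whose summit, the point of highest enrichment, fell there. Signal is the value that the authors' peak caller gave to each peak, on a scale that the sources used here do not give, so it is compared only within a list. The main list is the authors' optimal set of 1667 peaks, chosen for agreement between replicates by the irreproducible discovery rate (IDR). The relaxed lists, which hold weaker entries and background as well, had 16959 entries for the pooled reads, 19058 for replicate 1 and 18463 for replicate 2. For a view of each replicate alone, its 1667 highest peaks were used. The lists hold no read counts, so depth is unknown.

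The windows that reach 50 bases to each side of 9 of these summits show the DNA under the peaks, for 6 of the highest and 3 of the lowest member signals in the IDR list. No annotated exon touches any of these windows. Each is written 5' to 3' on the strand of the ribosomal protein gene, from the RefSeq sequence of WBcel235 (ce11), and capitals mark the word AGTGT or its reverse complement ACACT, a word noticed after these windows were seen. The first 6 are the highest, from rpl-3 (chrIII:3867519-3867619, plus strand), rpl-15 (chrIV:654870-654970, minus strand), rpl-35 (chrIII:7854648-7854748, plus strand), rps-23 (chrIV:12391283-12391383, minus strand), rpl-20 (chrIV:4750027-4750127, minus strand) and rpl-43 (chrII:14154518-14154618, plus strand).
rpl-3: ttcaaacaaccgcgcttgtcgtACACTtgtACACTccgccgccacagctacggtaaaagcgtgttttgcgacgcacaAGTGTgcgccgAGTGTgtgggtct
rpl-15: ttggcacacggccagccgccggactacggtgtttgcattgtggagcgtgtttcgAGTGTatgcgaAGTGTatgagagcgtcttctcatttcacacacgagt
rpl-35: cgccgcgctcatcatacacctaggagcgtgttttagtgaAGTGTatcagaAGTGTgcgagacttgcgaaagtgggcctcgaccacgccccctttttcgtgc
rps-23: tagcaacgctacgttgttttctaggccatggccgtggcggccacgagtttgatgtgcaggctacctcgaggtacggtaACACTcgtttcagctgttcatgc
rpl-20: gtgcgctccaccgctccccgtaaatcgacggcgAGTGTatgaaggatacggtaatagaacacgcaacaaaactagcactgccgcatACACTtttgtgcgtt
rpl-43: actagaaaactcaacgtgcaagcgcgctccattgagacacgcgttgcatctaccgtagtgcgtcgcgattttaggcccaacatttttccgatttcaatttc
The last 3 are from rpl-18 (chrIV:13777671-13777771), rpl-38 (chrV:15511755-15511855) and rpl-34 (chrIV:12268497-12268597), all on the plus strand.
rpl-18: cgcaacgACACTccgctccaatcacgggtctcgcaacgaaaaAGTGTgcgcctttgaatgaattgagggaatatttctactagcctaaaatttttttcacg
rpl-38: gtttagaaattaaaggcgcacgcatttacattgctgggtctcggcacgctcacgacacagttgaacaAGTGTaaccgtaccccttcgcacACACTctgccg
rpl-34: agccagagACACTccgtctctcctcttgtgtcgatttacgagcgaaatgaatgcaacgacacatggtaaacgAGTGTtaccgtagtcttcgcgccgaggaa

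Most ribosomal protein genes had an IDR summit. There were 54 of 81 (66.7%, 95% Wilson interval 55.9 to 76.0%), against 7.85% of all protein-coding genes. The 1667 highest peaks of replicate 1 alone reached 53 genes (65.4%) against a background of 7.35%, and those of replicate 2 reached 54 (66.7%) against 7.88%, a mean of 66.0% ± 0.873 (SD, n = 2). The same 47 genes were reached in both replicates and in the IDR list. A further 6 were reached in replicate 1 only and 7 in replicate 2 only. The same overlap was not counted over all coding genes, so whether it is usual for these lists is not known. In the relaxed lists, 75 of the 81 had a pooled summit against 30.4% of coding genes, 78 had one in replicate 1 against 31.0%, and 75 had one in replicate 2 against 31.7%. Wilson intervals here count genes and cover counting error alone, and no test between samples was possible with 1 group.

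**Figure D1:**
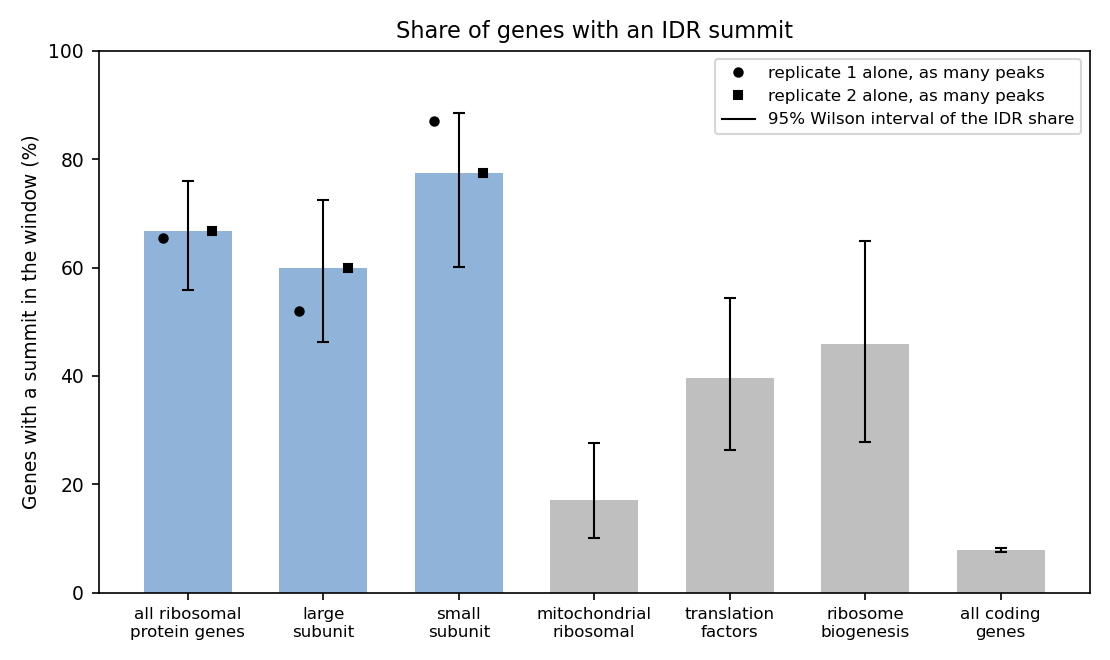
Share of genes with an IDR summit in the promoter window, in percent, for ribosomal protein genes, their subunits, 3 related lists and all coding genes. Bars give the IDR share, lines its 95% Wilson interval, and points the share in each replicate by its own 1667 highest peaks; all ribosomal protein genes stand at 66.7% and all coding genes at 7.85%.

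Among genes with an IDR summit, ribosomal protein genes had a median signal close to that of the others. The median IDR signal of the 54 was 94.1, and that of the other 1514 coding genes with an IDR summit was 94.9. The top of the list held more of them. They lay under 52 distinct summits, 3.16% of the 1648 nuclear IDR peaks, yet 9 of the 50 nuclear peaks of highest signal (18%) and 12 of the first 100 (12%) were at these genes. Of the first 500 nuclear peaks, 20 (4%) were.

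The highest signals belonged to proteins of both subunits. rpl-3, whose protein reaches toward the peptidyl transferase centre, had a pooled signal of 478.3, with 209.0 in replicate 1 and 269.5 in replicate 2. rpl-15 had 435.4, with 169.4 and 270.5, and rpl-35, whose protein sits near the exit tunnel, had 430.2, with 175.5 and 258.1. In each replicate these 3 ranked between 16 and 20 of all entries, so both replicates put them at the head of the ribosomal protein genes. rps-23, whose protein lines the decoding centre, was the highest of the small subunit at 369.4, with 125.4 in replicate 1 and 242.6 in replicate 2. rpl-20 had 321.8, with 111.7 and 208.1. The signal of a replicate is not on the scale of the other, so ranks are the better comparison, and these 5 genes ranked 16 to 33 in replicate 1 and 18 to 25 in replicate 2.

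The next 7 had pooled signals from 186.9 to 266.2. rpl-43 had 97.9 in replicate 1 and 170.7 in replicate 2. rps-26, whose protein lines the channel where messenger RNA leaves, had 97.8 and 159.8. rps-24 had 106.6 and 132.5, and rps-28 had 107.3 and 126.7. These 4 ranked 40 to 51 in replicate 1 and 36 to 79 in replicate 2. rps-19, whose human counterpart is mutated in Diamond-Blackfan anaemia, had 94.7 and 103.5. rpl-12, which codes for a protein at the base of the stalk, had 70.0 and 120.7, and rps-20 had 75.4 and 112.5. Of the 12 highest genes, 6 were of the large subunit.

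**Figure D2:**
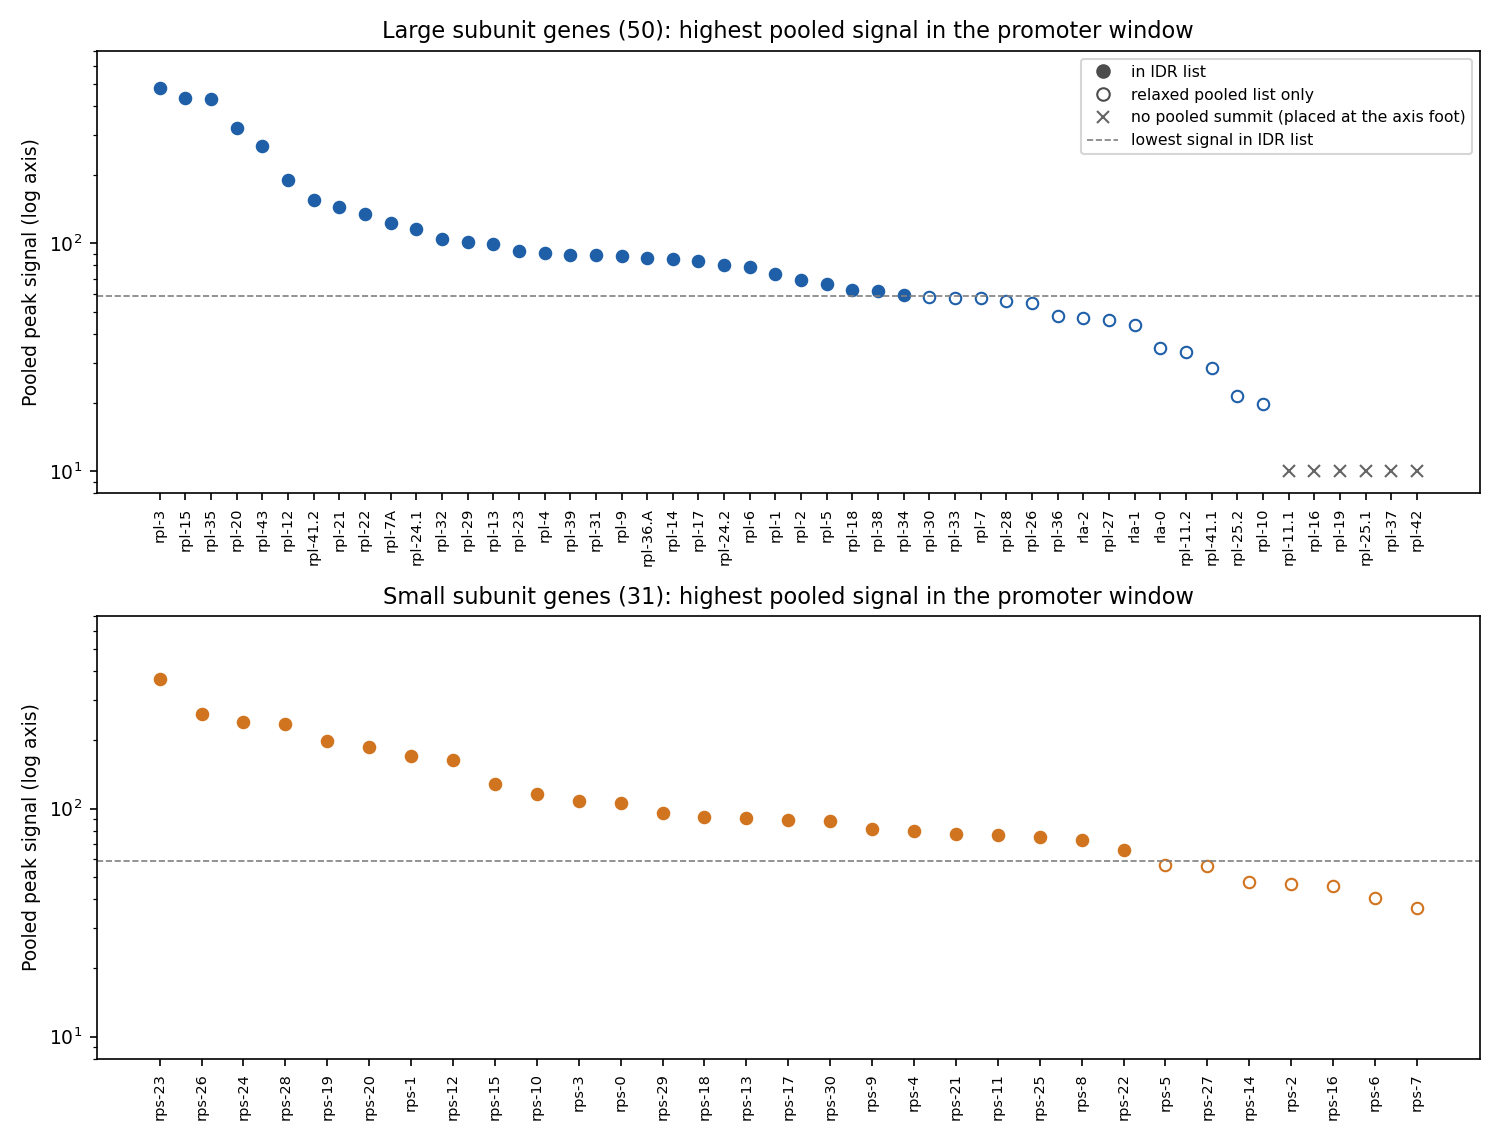
Highest pooled signal in the promoter window (log axis) of each large subunit gene, above, and each small subunit gene, below, in descending order; filled points are in the IDR list, open points in the relaxed pooled list only, crosses in neither. All 31 small subunit genes have a pooled summit, and 6 large subunit genes have none.

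The signals fell smoothly through the threshold of the IDR list. The 6 lowest genes inside it were rpl-2 (69.3), rpl-5 (66.4), rps-22 (65.7), rpl-18 (62.2), rpl-38 (61.9) and rpl-34 (59.5), where the lowest IDR signal of any peak was 58.8. The replicates parted most at rpl-2, which had 14.4 in replicate 1, rank 5090, and 53.7 in replicate 2, rank 823. rpl-5, whose protein carries 5S ribosomal RNA into the large subunit, had 29.2 and 34.9. rps-22 had 31.1 and 36.9, rpl-18 had 30.6 and 31.3, rpl-38 had 21.7 and 39.6, and rpl-34 had 28.9 and 28.3. Just outside were rpl-30 at 58.4, rpl-33 at 57.5 and rpl-7 at 57.4. The rpl-30 summit lay 835 bp upstream, in an intron of pab-1, whose 5' end was the nearest, and its replicate summits were 184 bp apart. The step from rpl-34 (59.5) to rpl-30 (58.4) is smaller than that from rpl-38 (61.9) to rpl-34. It is larger than that from rpl-33 (57.5) to rpl-7 (57.4). Signal therefore shows no clear gap at the edge of the list.

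Signals in the replicates rose together across the genes. Spearman's rho between them was 0.742 over the 54 genes with an IDR summit and 0.822 over the 75 with a summit in both relaxed lists, as a description, since the replicates share the control file and the genomic sites. The replicate summits of the 54 lay a median of 19 bp apart, 43 of the 54 lay within 50 bp, and the largest gap was 92 bp, at rps-21. The IDR list was chosen for agreement between replicates, so agreement among the 54 follows in part from that choice. No such gaps were computed for other coding genes, so they are not shown to set these genes apart.

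**Figure D3:**
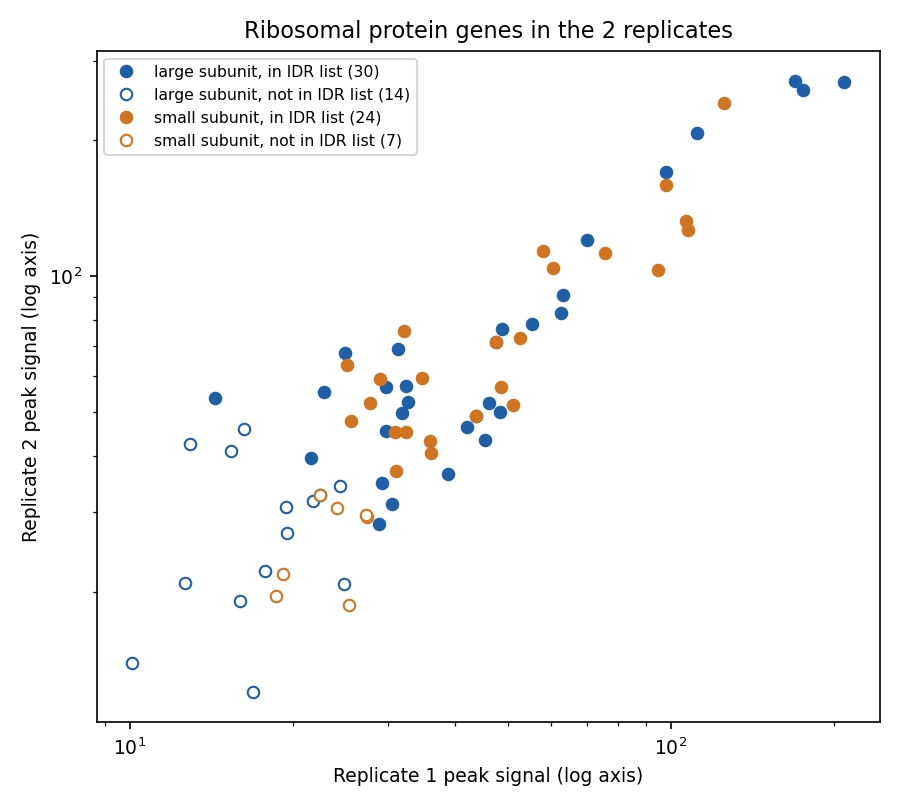
Peak signal in replicate 1 against replicate 2 (both log axes) for the 75 ribosomal protein genes with a summit in both relaxed lists, coloured by subunit, filled where the gene is in the IDR list. The points run along a diagonal, with Spearman's rho of 0.822.

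Small subunit genes carried an IDR summit more often than large subunit genes, by counts alone. They did so in 24 of 31 genes (77.4%, interval 60.2 to 88.6%), against 30 of 50 for the large subunit (60%, interval 46.2 to 72.4%). The small subunit reached 27 genes in replicate 1 and 24 in replicate 2 (82.3% ± 6.84, SD, n = 2), and the large subunit 26 and 30 (56% ± 5.66). The small subunit was higher by 17.4 percentage points in the IDR list, 35.1 in replicate 1 and 17.4 in replicate 2. The intervals overlap, genes are not replicates of a condition, and the difference was not tested. When each summit was given only to its nearest coding gene, the order turned, with 19 large subunit genes (38%) and 11 small subunit genes (35.5%), against 5.35% of all coding genes. Without the 3 rla genes the large subunit had 30 of 47 (63.8%). Signal and position were close, with a median of 100.7 and 278 bp upstream for the small and 91.6 and 292 bp upstream for the large subunit.

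The 3 stalk genes were all outside the IDR list. rla-0, rla-1 and rla-2 code for the acidic proteins P0, P1 and P2 of the large subunit stalk, which engages elongation factors. rla-2 was the highest, at 46.9 in the pooled list, 19.5 in replicate 1 and 27.0 in replicate 2. rla-1 had 43.7, with 24.9 and 20.8, at a summit 121 bp downstream of its 5' end and inside its own exon. rla-0 had 34.8, with 17.8 and 22.2. Both replicates therefore placed all 3 below the highest 1667 peaks, from rank 1675 to rank 4145.

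The other large subunit genes outside the list ranged from just under its lowest signal to no summit at all. Below rpl-30, rpl-33 and rpl-7, rpl-28 had 55.8 and rpl-26 54.5. rpl-36 had 47.8, from a summit that lies also in the window of rps-14. rpl-27 had 45.9, at 75 bp downstream of its 5' end. rpl-10, whose protein joins the large subunit late, had the lowest value at 19.8, with 16.9 in replicate 1 and 11.996 in replicate 2. rpl-11.1, rpl-16 and rpl-37 had a summit in the relaxed list of replicate 1 only, at 10.3, 9.39 and 8.99, where the lowest signal of that list was 7.97. rpl-19, rpl-25.1 and rpl-42 had no summit in any of the lists. All 6 genes with no pooled summit were of the large subunit. A gene without a listed summit had none that passed the authors' calling, which does not show that the factor was absent there.

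The 7 small subunit genes outside the list all had a pooled summit. rps-5 had 56.8, with 27.4 in replicate 1 and 29.3 in replicate 2. rps-27 had 55.8, with 27.3 and 29.6, and rps-14 had 47.8, with 22.5 and 32.7. rps-2 had 46.7, with 25.4 and 18.7, and rps-16 had 45.8, with 24.2 and 30.6. rps-6, the classic substrate of S6 kinase, had 40.4, with 18.7 and 19.5, and rps-7 had 36.5, with 19.2 and 21.9. At 2 of them the replicate summits were over 200 bp apart, 201 bp at rps-16 and 651 bp at rps-7. The third such gene was rpl-25.2, at 371 bp. At these genes the replicate values are not from the same site.

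Counted together, 21 of the 27 genes outside the IDR list had a pooled summit, with a median signal of 46.7 and ranks from 1691 to 11383, and 13 of them ranked within the first 2500 of 16959. Over all 19973 coding genes, in or out of the IDR list, 6074 (30.4%) had a pooled summit and 1568 had an IDR summit. The share over coding genes outside the IDR list alone was not computed, nor was one for the rank limit of 2500. That limit was chosen after the data were seen, so the count of 13 has no background.

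Genes that share a number differed in signal. rpl-41.2 had an IDR signal of 154.9, with 63.3 in replicate 1 and 91.0 in replicate 2. rpl-41.1, 700 bp upstream of it, was outside the list at 28.4, with 10.1 and 13.9. rpl-24.1 had 116.0, with 47.6 and 71.5, and rpl-24.2 had 80.0, with 22.9 and 55.4. rpl-24.2 is the worm counterpart of a ribosome assembly factor and not of a protein of the mature subunit. rpl-25.2 had a pooled signal of 21.4 and rpl-25.1 no summit. rpl-11.2 had 33.2, with 12.6 and 20.9, and rpl-11.1 no pooled summit. rpl-7A and rpl-36.A code for proteins unrelated to those of rpl-7 and rpl-36. rpl-7A had 122.9, with 48.8 and 76.5, against 57.4 for rpl-7, with 16.3 and 45.9. rpl-36.A had 86.0, with 32.3 and 57.1, against 47.8 for rpl-36, with 22.5 and 32.7. In every one of these pairs both replicates gave the same order of signal.

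Only 2 of the genes lie on the X chromosome, rpl-11.2 and rpl-25.1, and neither had an IDR summit. Their background was low too, as 1.10% of coding genes on X had one. On the autosomes, 15 of 25 genes on I, 6 of 10 on II, 14 of 18 on III, 15 of 18 on IV and 4 of 8 on V had an IDR summit. The shares of all coding genes there were 12.02% on I, 8.67% on II, 13.7% on III, 8.66% on IV and 4.95% on V.

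The summits lay in a narrow band upstream of the genes. The 54 summits were a median of 282.5 bp upstream of the annotated 5' end, with quartiles of 249 and 358.5 bp. The other coding genes with an IDR summit had a median of 244 bp and wider quartiles, 139 and 423 bp. The replicates each gave 284 bp for the ribosomal protein genes, against 240 bp and 245 bp for the others. A band from 200 to 450 bp upstream, chosen after the distances were seen, held 43 of the 54 (79.6%) and 36.3% of the others. No ribosomal protein gene had its IDR summit downstream of the 5' end, where 3.83% of the others did. Within 100 bp upstream were 2 of them (3.70%), rpl-12 at 46 bp and rpl-7A at 90 bp, against 13.5% of the others. The farthest was rpl-43 at 726 bp. Measured to the start codon, the medians were 306.5 bp and 293 bp, so the shift between the groups was smaller on that scale.

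**Figure D4:**
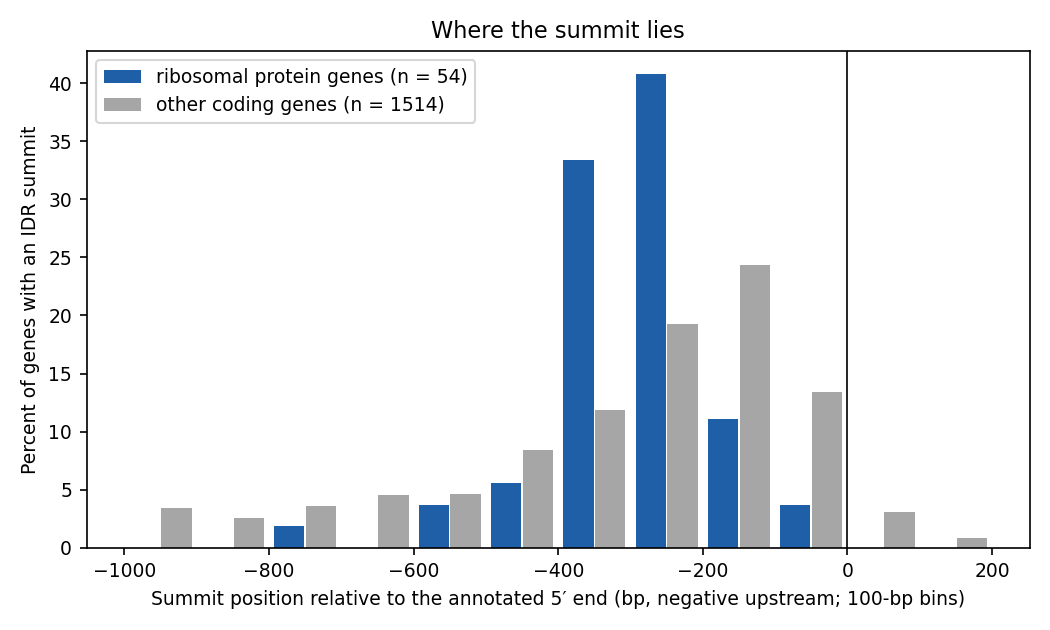
Position of the IDR summit relative to the annotated 5' end (bp, negative upstream, bins of 100 bp) as percent of genes, for the 54 ribosomal protein genes and 1514 other coding genes. The band from 200 to 450 bp upstream holds 79.6% of the ribosomal protein genes, and none lies downstream of the 5' end.

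Many of these summits belong to 2 genes at once. Of the 54 genes, 37 (68.5%) had a summit that was also the highest in the window of another coding gene, as did 61.0% of the other coding genes with an IDR summit. A gene whose window held the summit and a higher one was not counted, so sharing can be understated. Where a summit is shared, enrichment at the ribosomal protein gene and at its neighbour cannot be told apart. In 13 of the 37 the ribosomal protein gene had the nearer 5' end. Among the strongest, rpl-15 shared its summit with K11H12.8, rps-23 with dpm-3, rpl-20 with Y17G9B.5, rpl-43 with Y48B6A.1, rps-26 with tmem-107 and rps-28 with Y41D4B.4. rps-19 shared with hsr-9, rpl-12 with lin-54, the DNA-binding subunit of the DREAM complex, and rps-20 with ekl-4. The rpl-12 summit was 46 bp from rpl-12 and 347 bp from lin-54, while that of rps-26 was 396 bp from rps-26 and 61 bp from tmem-107. Further pairs were rps-1 with ifet-1, rps-12 with ska-3, rpl-21 with C14B9.10, rpl-22 with ify-1, rps-15 with F36A2.9, rpl-7A with set-21, rps-3 with sna-3, rps-0 with rbg-3, rpl-29 with thoc-7, rps-29 with snt-2 and rpl-23 with swp-1. The rest were rps-18 with sec-61.A, rps-13 with nfx-1, rpl-4 with B0041.8, rpl-31 with sac-2, rpl-9 with lpd-7, rpl-36.A with nuo-1, rpl-17 with aps-3, rps-9 with lsm-1, rpl-1 with Y71F9AL.9, rpl-2 with calf-1, rpl-5 with col-38, rps-22 with polh-1 and rpl-34 with ppm-1.H.

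In 2 cases both genes code for ribosomal proteins, 1 of each subunit. rpl-24.1 and rps-10 face away from each other across 610 bp and share a summit of signal 116.0, 270 bp from the one and 340 bp from the other. rpl-39 and rps-30 do so across 499 bp with a summit of signal 88.5, 240 bp and 259 bp away, which lies in the window of C26F1.3 as well. The pair rpl-36 and rps-14, 663 bp apart, shared the pooled summit at 47.8.

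The remaining 17 genes were alone at their summit by this measure, 10 of the large and 7 of the small subunit, with a median signal of 80.0 against 105.5 for the 37 that shared. rpl-3, rpl-35 and rps-24 are among the 17, so 3 of the highest values were from summits that were not the highest of any other coding gene.

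The share with a summit differed with the placement of the next gene upstream, by limits that were set after the data were seen. A gene was called head to head where the next coding gene upstream starts on the other strand within 1000 bp, and tandem where the next gene upstream on the same strand ends within 500 bp. Head-to-head ribosomal protein genes had an IDR summit in 34 of 48 cases (70.8%, against 22.1% of other such genes), and genes of neither kind in 19 of 24 (79.2%, against 4.03%). Tandem genes had one in 1 of 9 (11.1%, against 6.44%), rps-17 at 89.3. Without the tandem genes, 53 of 72 (73.6%) had an IDR summit.

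**Figure D5:**
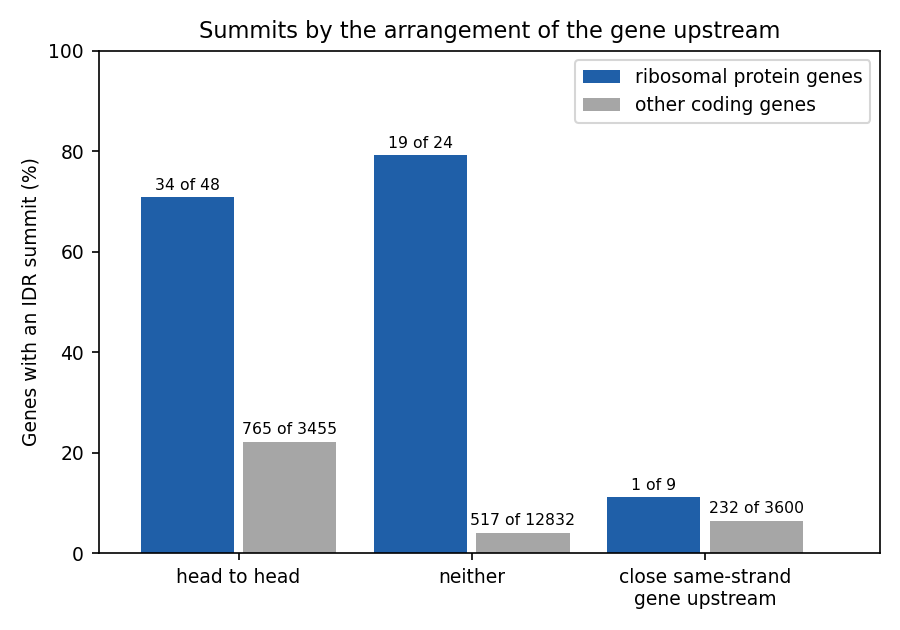
Percent of genes with an IDR summit by the placement of the next coding gene upstream, for ribosomal protein genes and other coding genes, with the numbers over the bars. Ribosomal protein genes stand at 70.8% when head to head, 79.2% in neither class and 11.1% behind a close gene on the same strand.

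The 8 tandem genes without a summit were rps-2, rpl-27, rps-16, rla-1, rps-7, rpl-16, rpl-19 and rpl-25.1. In worms, closely spaced genes on the same strand are often transcribed together as an operon from a promoter ahead of the first gene. For 3 of the 8, the gene ahead had an IDR summit in its own window, where 7.85% of all coding genes had one. The share for genes ahead of other tandem genes was not computed, and transcription as an operon was not tested. rps-16 begins 110 bp behind fib-1, which codes for the nucleolar methyltransferase fibrillarin and had a signal of 195.6, with 63.4 in replicate 1 and 132.0 in replicate 2, at 105 bp upstream. rla-1 begins 106 bp behind Y37E3.8, which had 72.4, with 30.5 and 41.0. rpl-16 begins 106 bp behind lias-1, which had 62.4, with 21.3 and 42.8. glit-1, 98 bp ahead of rpl-25.1, had a pooled signal of 56.4 outside the IDR list. C53H9.2, 120 bp ahead of rpl-27, had 38.2, and C09D4.6, 365 bp ahead of rpl-19, had 27.9. The genes ahead of rps-2 and rps-7 had no summit in any list. So rla-1, rps-16 and rpl-16 lack a summit of their own in the IDR list while a gene just ahead has one, and the rule, which reads each gene's own 5' end, does not count it.

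The DNA under the summits was described within 50 bp on each side, at the 52 distinct summits. Most summits, 42 of 52, were between genes, 8 were in genes of the noncoding class, 1 in an intron of C03D6.1 (rpl-24.2) and 1 in an exon of sec-61.A (rps-18). These locations were not counted for other summits, so they are not shown to set these genes apart. None of the 54 genes had a tRNA gene within 500 bp of its summit, where 13.7% of the other 1596 nuclear IDR summits had one. Those other summits were not limited to promoters of coding genes, so the contrast is not between like sites. With summits near a tRNA gene left out, 1509 of the 1568 coding genes kept an IDR summit. Few coding genes depended on such a summit, and whether the 54 differ from them in this was not tested. GC content had a median of 49.5%, against 45.5% at the other summits and 40.6% at points 500 bp to each side of the same summits.

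Words known for forkhead proteins, TGTTTAC or TATTTAC and likewise TGTTGAC or TATTGAC on either strand, were in 1 of the 52 windows (1.92%, interval 0.340 to 10.1%). They were in 6.08% of the other IDR summits, 5.80% of the 1018 summits at other coding genes and 4.81% of the 104 flanking points. The shorter TGTTTA was in 4 windows (7.69%), against 7.89% of the other summits and 2.88% of the flanks. TATAAA was in 2 windows (3.85%), against 6.27% and 8.65%, and the run TTTTTTTT was in none, against 5.95% and 4.81%. Only these exact words were counted. A window without them can hold other forms of forkhead site, which were not counted, and their absence says nothing of the factor.

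The word AGTGT, on either strand, was in 23 of the 52 windows (44.2%, interval 31.6 to 57.7%). It was in 20.7% of the other IDR summits and 22.6% of the 1018 summits at other coding genes, which are the closer comparison. It was also in 13.5% of the flanks and 15.6% of windows placed at the members' median distance from all other coding genes. At that distance, 3 of the 27 members outside the list (11.1%) held it. The word came from reading the printed windows, 8 of 9 of which hold it. Among the 43 member windows not printed it was in 15 (34.9%, interval 22.4 to 49.8%), the fairer figure. That interval takes in the 22.6% at other coding genes. ACGGTA, also noticed there, was in 12 of 52 (23.1%) and in 7 of the 43 not printed (16.3%, interval 8.12 to 30.0%). It was in 7.89% of the other summits, 8.94% of the summits at other coding genes and 2.88% of the flanks. The interval takes in the 8.94%. The windows differ in GC content, and its part in these shares was not tested.

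Genes for other steps of making and using ribosomes had an IDR summit in smaller shares. Of 24 ribosome biogenesis genes, 11 had an IDR summit (45.8%, interval 27.9 to 64.9%), led by fib-1 (195.6), nol-10 (170.6) and nol-58 (141.4). Of 43 translation factor genes, 17 did (39.5%, interval 26.4 to 54.4%), led by eif-3.B (207.1), eef-1A.1 (155.7) and eef-1G (144.5). Of 70 mitochondrial ribosomal protein genes, 12 did (17.1%, interval 10.1 to 27.6%), led by mrpl-15 (193.4), mrpl-23 (131.9) and mrps-35 (131.5). Only the interval of the translation factors and that of the mitochondrial list lie wholly below the 55.9 to 76.0% of the cytosolic ribosomal protein genes, and these differences were not tested. The order depends on the list. In the pooled relaxed list the shares were 79.2% for biogenesis genes, 93.0% for translation factors and 77.1% for the mitochondrial list. The cytosolic ribosomal protein genes had 92.6% there, no more than the translation factors. Median IDR signals of the 3 lists were 89.2, 104.5 and 80.5 in that order, against 94.1. The IDR summits of the 3 lists lay nearer the 5' end, at medians of 200 bp, 221 bp and 191.5 bp upstream in that order, against 282.5 bp. Ribosomal proteins that are fused to ubiquitin or carry other names fall outside the naming rule and were not scored.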

How the data were processed

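Peak lists came from 2 biological replicates of 1 group. Per the deposited text listings, the authors made relaxed lists for the replicates and their pool with 1 control file, and took the optimal IDR list from them. Of these, 4 lists on ce11 were used and those on ce10 were not. The deposited signal (column 7) is the value of the authors' peak caller, and column 10 is the deposited summit offset from the peak start. The aligner, caller, IDR threshold and signal scale were not given in the sources used here. No read counts are in the lists, so depth is unknown and Wilson intervals (95%) cover counting error alone. The number of columns without a known sample was 0.

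Ensembl release 115 gave the genes on WBcel235, which ce11 is a name for, and RefSeq the sequence. A gene took the highest signal of summits from 1000 bp upstream to 200 bp downstream of its 5' end. Summits of the IDR list and the replicates were matched within 200 bp. Python 3.11.15, numpy 2.4.6, scipy 1.17.1 and matplotlib 3.10.9 were used, and scoring was tested on simulated summits placed at known distances. No test between samples was possible with 1 group.

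The genes, lists and limits were chosen with earlier results of these data known. Named were the 12 highest and 6 lowest genes in the IDR list, all genes outside it, those on X, numbered pairs, rla genes, genes that share a summit, genes with replicate summits over 200 bp apart and the 3 highest genes of each related list. Sequences were printed by signal, from windows that overlap no annotated exon, with those of the first chromosome left out. From the ribosome biogenesis list, 3 names were not in the annotation. The distance band, the placement limits, the rank limit of 2500 and the words AGTGT and ACGGTA were chosen after the data were seen. Alternatives were other windows, 5' ends, lists and gene assignments, and each replicate alone.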

Additional observations from a re-analysis of the deposited data

How the results depend on the processing

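The count of ribosomal protein genes moved most with the narrow window and the nearest-gene assignment, and the count of all coding genes with the choice of list. With 300 bp upstream and 100 bp downstream, 30 ribosomal protein genes had an IDR summit, 16 large and 14 small, against 950 coding genes, and the median position was 250.5 bp upstream. With each summit given to its nearest coding gene, 30 did, 19 large and 11 small, against 1069 coding genes (5.35%), at a median of 271 bp and a median signal of 88.9. By the 833 IDR peaks of highest signal it was 36 genes, with 19 large and 17 small, 904 coding genes, 277.5 bp and a signal of 125.6. The pooled relaxed list gave 75 genes against 6074 coding genes, at 285 bp and a signal of 85.2. A window of 500 bp upstream gave 276 bp and a signal of 92.3, and the start codon as the 5' end gave 306.5 bp. Each replicate alone gave 53 to 54 genes, 26 to 30 large, 24 to 27 small, 1469 to 1574 coding genes, 284 to 284 bp and a pooled signal of 94.1 to 95.9. Of 70 alternative values, 47 differed by less than the replicate spread, or by at most 1.5 times for counts, and 23 moved further. Both replicates gave 284 bp, so their spread in distance was 0 and any shift from 282.5 bp, even to 284 bp, is among the 23. In every alternative the share of ribosomal protein genes was above that of coding genes.

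The main limits are the single group, the 1 control file, the unknown depth and the lack of any strain without the tag. A summit in a shared window cannot be given to a single gene. The transgene promoter sets where the factor was made, and whole larvae were used, so germline and other tissue cannot be told apart.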
